A study of Rattus norvegicus with 18 samples.

Results

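The Slc22 genes described here encode organic ion, carnitine and urate transporters of the kidney tubule, measured as messenger RNA in kidney cortex. They were chosen by symbol from a list of 9 genes: Slc22a2, Slc22a4, Slc22a5, Slc22a6, Slc22a7, Slc22a8, Slc22a12, Slc22a13 and Slc22a22. Of these, 7 were among the 18420 gene rows of the deposited table, and all 7 passed the filter on low values. Slc22a4 and Slc22a13 were not analysed here.

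The series compared the kidney transcriptome of the Zucker diabetic fatty (ZDF) rat in health, in diabetic kidney disease and after Roux-en-Y gastric bypass (RYGB), an operation that joins a small stomach pouch to a loop of small bowel further down. In ZDF rats the fa allele disables the leptin receptor, and fa/fa animals become obese and diabetic. The healthy control group was lean, non-diabetic and fa/+, the disease group was diabetic and fa/fa, and the animals of the RYGB group were fa/fa, labelled diabetic too, and had been operated on. All 3 groups share the ZDF strain background and the tissue, no operation is named for the other groups, and each group had 6 libraries.

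Proximal tubule cells take drugs, toxins and waste products up from the blood and pass them into the urine. The organic cation transporter OCT2 (Slc22a2) and the organic anion transporters OAT1 (Slc22a6) and OAT3 (Slc22a8) are known as the uptake carriers on the blood side of these cells. On the urine side, URAT1 (Slc22a12) takes urate back in exchange for organic anions, and OCTN2 (Slc22a5) takes back carnitine together with sodium. OAT2 (Slc22a7) is known in rat kidney from the straight, last part of the proximal tubule (S3), and OAT-PG (Slc22a22) is a proximal tubule carrier that prefers prostaglandins.

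Libraries held 8116638 to 42713246 reads in genes, and their size factors lay between 0.4014 and 2.0222. Markers of the proximal tubule were high in every library: the summed normalised reads of 11 such genes were 387305 to 653871 in healthy control, 289200 to 686873 in disease and 417821 to 653847 in RYGB. Some libraries stood apart on markers. Healthy control replicate 4 had the highest summed tubular injury markers of its group (18153, the other controls up to 13056). Disease replicate 5 had the lowest summed proximal tubule markers of all libraries. Healthy control replicate 1 had the highest summed glomerular markers of its group (30762, the other controls up to 20881) and the lowest summed proximal tubule markers of the controls (387305). Only the first 2 of these libraries were also left out together. Values below are normalised reads, that is reads divided by the library's size factor, and fold changes are differences of group means of log2(value + 1) with their standard error (SE) and 95% interval. A gene was called at a Benjamini-Hochberg adjusted p below 0.05 by limma over all 13988 genes tested. Since the labels do not tie libraries to separate animals, a p-value measures the spread between these libraries. In pieces of cortex, fewer cells of a type and less RNA per cell cannot be told apart.

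In the diabetic cortex 3 of the 7 transcripts fell and none rose, where 1.03% of all genes tested fell and 0.579% rose; at an unadjusted p below 0.05, which 11.1% of all genes reached, 4 of the 7 were lower and none was higher. Slc22a2, Slc22a7 and Slc22a22 fell, and each had all 6 disease libraries below all 6 control libraries, which 1.24% of all genes showed in either direction. After gastric bypass 3 of the 7 rose against disease and none fell, where 1.84% of all genes rose and 2.1% fell: Slc22a2, Slc22a12 and Slc22a22. At an unadjusted p below 0.05, which 20.7% of all genes reached, 3 of the 7 were higher and none was lower. When libraries were scaled to proximal tubule markers, Slc22a5 was called lower. That scaling called 2936 of all 13988 genes lower in this comparison, with a median log2 fold change of -0.46 over all genes. In all 7 the RYGB and disease libraries overlapped, while 2.6% of all genes had no overlap. Against healthy control none of the 7 was called in RYGB, by limma, edgeR or DESeq2, where limma called 4.44% of all genes. At an unadjusted p below 0.05, 2 of the 7 differed in that comparison (Slc22a6 higher, Slc22a7 lower), as did 26.2% of all genes. The median log2 fold change of the 7 was -0.85 in disease against healthy control, 1.05 in RYGB against disease and -0.18 in RYGB against the controls, beside medians of 0.002, -0.001 and -0.013 over all genes. Each group serves in 2 of the comparisons, so the fall in disease and the rise after bypass rest on the same disease libraries. An alternative chosen after seeing the data left out both healthy control replicate 4 and disease replicate 5. Disease replicate 5 held the top disease value in Slc22a2, Slc22a7, Slc22a12 and Slc22a22, so leaving it out lowers their disease means by construction. Healthy control replicate 4 was the lowest control in Slc22a2. More genes over all were called in this alternative as well. Limma then called the same 3 transcripts in disease (Slc22a2 -1.58, Slc22a7 -2.59 and Slc22a22 -2.84, adjusted p = 0.00143, 0.0277 and 0.00243). It called the same 3 in RYGB against disease (Slc22a2 1.34, Slc22a12 1.41 and Slc22a22 2.23, adjusted p = 0.00279, 0.00175 and 0.00671).

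**Figure D1:**
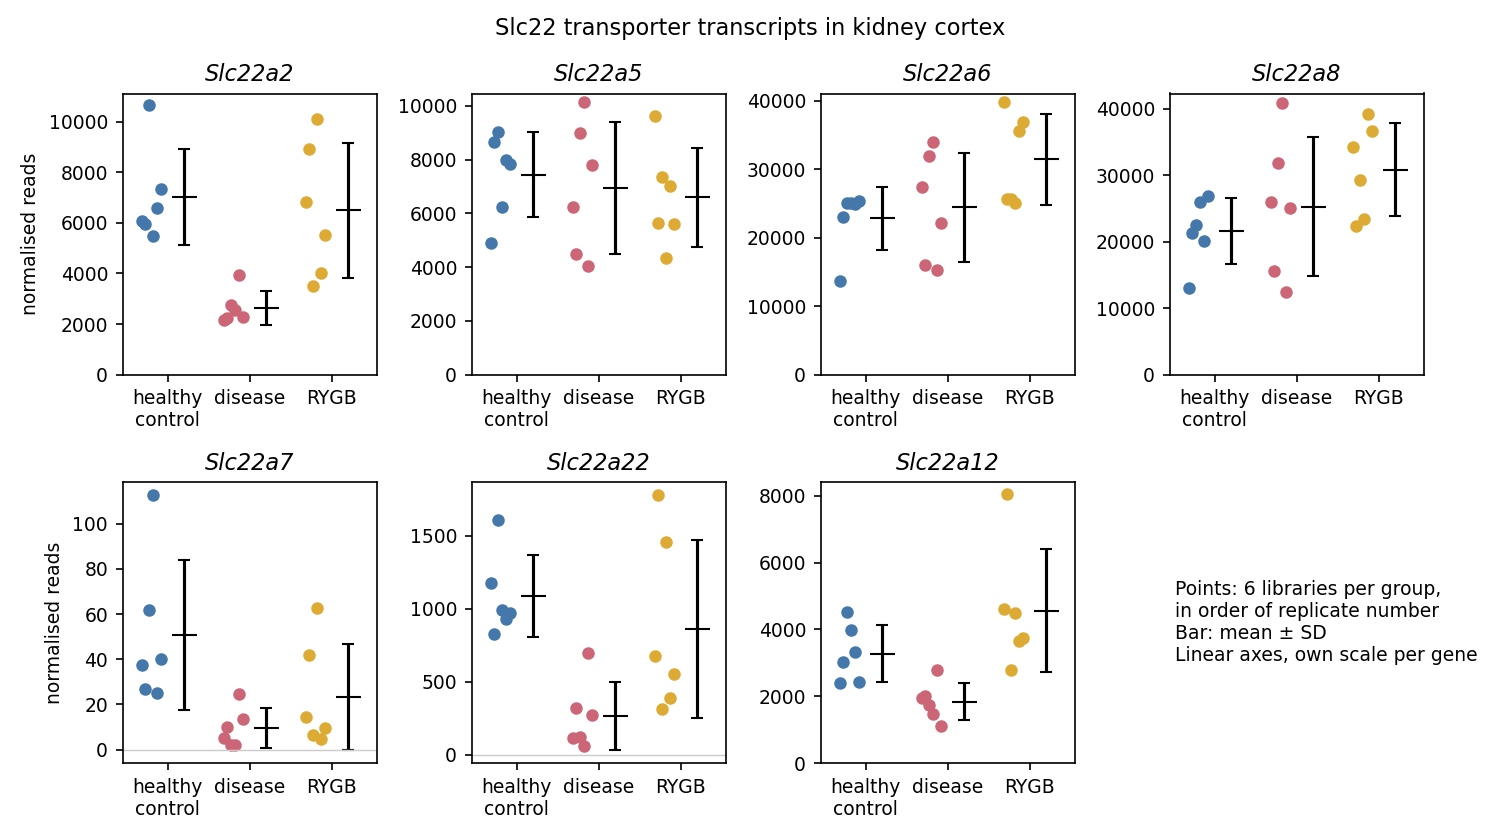
Normalised reads (linear vertical axis, one scale per gene) of the 7 Slc22 transcripts in healthy control, disease and RYGB. Points are the 6 libraries of a group in order of replicate number, and bars are the mean and SD. The disease libraries of Slc22a2, Slc22a7 and Slc22a22 all lie below the controls, while the groups overlap in Slc22a5, Slc22a6 and Slc22a8.

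Of the 3 carriers on the blood side, Slc22a2 fell in disease and rose after bypass, and Slc22a6 and Slc22a8 were not called. Slc22a2 encodes OCT2, which brings creatinine, metformin and other organic cations into the cell. Its promoter window is shown because the transcript was called in both directions: it covers the 250 bases before and the 50 bases after the annotated start at chr1:50710970-50711269, minus strand (RefSeq, GRCr8), read 5′ to 3′ along the gene.
Slc22a2: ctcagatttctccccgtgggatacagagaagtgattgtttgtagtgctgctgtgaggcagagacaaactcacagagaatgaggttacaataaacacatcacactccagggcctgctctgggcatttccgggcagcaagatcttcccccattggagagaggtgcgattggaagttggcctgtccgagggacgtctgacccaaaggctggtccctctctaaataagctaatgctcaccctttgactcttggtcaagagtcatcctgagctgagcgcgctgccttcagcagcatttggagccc
Slc22a2 had 5497, 6320.0 and 10672 normalised reads as lowest, median and highest value in healthy control. The disease libraries had 2143, 2409.6 and 3940.2, and the RYGB libraries 3507, 6169.9 and 10114. All disease libraries thus lay below all controls, and 5 of 6 RYGB libraries lay above all disease libraries. The mean was 7021 ± 1898 (SD, n = 6) in healthy control, 2650.4 ± 670.1 (SD, n = 6) in disease and 6485 ± 2653 (SD, n = 6) in RYGB. The ratio of means was 2.65 for healthy control over disease, with a log2 fold change of disease against healthy control of -1.40 ± 0.23 (SE, 95% interval -1.89 to -0.91, limma adjusted p = 0.00255). RYGB had 2.45 times the disease mean, a log2 fold change of 1.22 ± 0.23 (0.73 to 1.70, adjusted p = 0.00559). Between RYGB and healthy control the fold change was -0.18 ± 0.23 (-0.67 to 0.30, adjusted p = 0.63), an interval that leaves room for a RYGB level between 0.629 and 1.23 times the control level. When libraries were scaled to proximal tubule markers instead, the fall in disease was -1.03 with an adjusted p of 0.0518. These markers themselves had a median log2 fold change of -0.26 in disease, so the scaling alone makes such a fall smaller.

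Slc22a6 encodes OAT1, the carrier for para-aminohippurate, loop diuretics and many uraemic toxins. Its lowest, median and highest values were 13686, 25005 and 25342 in healthy control, 15303, 24768 and 33990.3 in disease, and 25134, 30615 and 39763 in RYGB. Healthy control replicate 1 lay far below the other controls, and the groups overlapped in every comparison. The mean was 22858 ± 4578 (SD, n = 6) in healthy control, 24445 ± 7959 in disease and 31437 ± 6670 in RYGB. No comparison called it: the log2 fold change was 0.06 ± 0.21 for disease against healthy control (-0.39 to 0.51, adjusted p = 0.952) and 0.40 ± 0.21 for RYGB against disease (-0.04 to 0.85, adjusted p = 0.289). For RYGB against healthy control it was 0.46 ± 0.21 (0.02 to 0.91, unadjusted p = 0.0431, adjusted p = 0.179), and 5 of 6 RYGB libraries lay above every control.

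Slc22a8 encodes OAT3, which shares many substrates with OAT1 and also carries conjugated steroids and antibiotics. The lowest, median and highest values of Slc22a8 were 13004, 21921 and 26916 in healthy control, 12508, 25463 and 40872 in disease, and 22361, 31735 and 39253 in RYGB. The disease libraries spanned a wider range than either other group, and the groups overlapped. The mean was 21626 ± 4991 (SD, n = 6) in healthy control, 25280.4 ± 10422 in disease and 30853 ± 7005 in RYGB. The log2 fold changes did not pass: 0.15 ± 0.25 in disease against healthy control (-0.37 to 0.67, adjusted p = 0.875), 0.37 ± 0.25 in RYGB against disease (-0.16 to 0.89, adjusted p = 0.416) and 0.52 ± 0.25 in RYGB against the controls (-0.01 to 1.04, adjusted p = 0.194). Against disease, the signs of Slc22a6 and Slc22a8 turned when libraries were scaled to proximal tubule markers (-0.053 and -0.091, neither called). The median of all genes was -0.46 under that scaling.

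The prostaglandin and anion carriers OAT-PG and OAT2 had the log2 fold changes farthest below 0 among the 7 in disease. Slc22a22 encodes OAT-PG, which clears prostaglandins from around the tubule so that they can be broken down inside the cell. Slc22a22 has close relatives in the rat genome, and reads that fit several places were not counted to a gene, so its counts are uncertain where copies are alike. The promoter window at chr7:90639646-90639945, minus strand (RefSeq, GRCr8), is shown because this transcript was called in both directions, with capitals on a match to the half-site of the androgen and glucocorticoid receptors read from the other strand.
Slc22a22: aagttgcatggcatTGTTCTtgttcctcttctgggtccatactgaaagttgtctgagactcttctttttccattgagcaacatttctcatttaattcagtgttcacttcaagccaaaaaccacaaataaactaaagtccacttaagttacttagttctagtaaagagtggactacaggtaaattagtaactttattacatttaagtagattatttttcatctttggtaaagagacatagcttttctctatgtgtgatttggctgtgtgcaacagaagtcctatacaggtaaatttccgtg
Slc22a22 had 826.0, 983.4 and 1609.7 normalised reads as lowest, median and highest value in healthy control. The disease libraries had 59.7, 197.0 and 698.3, and the RYGB libraries 315.8, 612.9 and 1780.3. Disease replicate 5 alone came near the controls, and only 2 RYGB libraries, replicates 2 and 4, exceeded all disease libraries. The mean was 1085 ± 282 (SD, n = 6) in healthy control, 264 ± 235 in disease and 861 ± 609 in RYGB. The control mean was 4.11 times the disease mean (log2 fold change -2.45 ± 0.48, 95% interval -3.46 to -1.45, limma adjusted p = 0.00936). This fall was called in each of the 18 fits without 1 library (-2.83 to -2.12). RYGB had 3.26 times the disease mean (1.86 ± 0.48, 0.85 to 2.87, adjusted p = 0.0356), and the difference between RYGB and healthy control was -0.59 ± 0.48 (-1.60 to 0.41, adjusted p = 0.432). The rise after bypass was not called without disease replicate 1, 3 or 4 or RYGB replicate 1, 2, 4 or 6 (adjusted p 0.0534 to 0.0926), nor by edgeR on the recovered reads (0.0503), in a fit of the compared groups alone (0.0832), with scaling to proximal tubule markers (0.0585) or with the replicate number as a block within the compared groups (0.152) or over all libraries (0.066).

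Slc22a7 encodes OAT2, a carrier of organic anions, nucleotides and creatinine. It was the one low transcript of the 7, with 30 to 103 reads per library in healthy control, 2 to 16 in disease and 6 to 82 in RYGB before scaling. In normalised reads its lowest, median and highest values were 25.2, 38.6 and 112.8 in healthy control, 2.11, 7.39 and 24.7 in disease, and 4.45, 11.96 and 62.5 in RYGB. The highest disease library, replicate 5, lay just under the lowest control, and RYGB replicates 2 and 4 were the only operated libraries above all disease libraries. The mean was 50.6 ± 33.2 (SD, n = 6) in healthy control, 9.54 ± 8.67 in disease and 23.2 ± 23.6 in RYGB. The control mean was 5.30 times the disease mean (log2 fold change -2.51 ± 0.61, -3.79 to -1.24, limma adjusted p = 0.0394). RYGB against disease gave 1.05 ± 0.61 (-0.23 to 2.32, adjusted p = 0.335), and RYGB against healthy control -1.47 ± 0.61 (-2.74 to -0.19, unadjusted p = 0.0261, adjusted p = 0.141). The call in disease was lost in 10 of 18 fits that left out 1 library (adjusted p 0.0501 to 0.112; healthy control replicates 1, 2, 3, 4 and 6, disease replicates 1 to 4 and RYGB replicate 1), by edgeR (0.0691), with scaling to proximal tubule markers (0.0809), and with the replicate number as a block within the compared groups (0.0539) or over all libraries (0.0839).

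On the urine side, the urate exchanger rose after bypass and the carnitine carrier did not pass in any comparison. Slc22a12 encodes URAT1, the main route by which filtered urate returns to the cell and the target of uricosuric drugs. Its promoter window at chr1:213281331-213281630, minus strand (RefSeq, GRCr8), is shown beside those of the other transcripts that rose.
Slc22a12: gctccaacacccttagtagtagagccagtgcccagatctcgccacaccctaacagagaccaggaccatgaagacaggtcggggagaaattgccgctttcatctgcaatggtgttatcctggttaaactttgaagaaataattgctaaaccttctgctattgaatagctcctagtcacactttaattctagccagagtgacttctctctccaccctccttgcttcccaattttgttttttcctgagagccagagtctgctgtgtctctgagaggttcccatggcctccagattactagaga
The lowest, median and highest values of Slc22a12 were 2402, 3177 and 4527 normalised reads in healthy control, 1112, 1839.7 and 2789 in disease, and 2776, 4120.3 and 8063 in RYGB. In disease 5 of 6 libraries lay below all controls, and in RYGB 5 of 6 lay above all disease libraries; the exceptions were disease replicate 5 and RYGB replicate 3, which lay close together. The mean was 3279.9 ± 848 (SD, n = 6) in healthy control, 1843 ± 566 in disease and 4561 ± 1839.9 in RYGB. RYGB had 2.47 times the disease mean (log2 fold change 1.28 ± 0.23, 95% interval 0.80 to 1.77, limma adjusted p = 0.00368). With scaling to proximal tubule markers this rise was 0.82 with an adjusted p of 0.0531. These markers include Ggt1 and Miox, which were called higher in RYGB than in disease themselves (1.45 and 0.95), so the scaling alone makes such a rise smaller. Disease against healthy control did not pass in the fit over all groups (-0.85 ± 0.23, -1.33 to -0.36, adjusted p = 0.0761). It was called with the replicate block within the compared groups (adjusted p = 0.0251), by DESeq2 (0.0281), without disease replicate 5 (0.0313) and without RYGB replicate 2 (0.0323). RYGB against healthy control gave 0.43 ± 0.23 (-0.05 to 0.92, adjusted p = 0.238), and only 2 RYGB libraries lay above all controls.

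Slc22a5 encodes OCTN2, the sodium-driven carnitine carrier whose loss causes systemic carnitine deficiency. Its lowest, median and highest values were 4880.5, 7905 and 9033 in healthy control, 4056, 7012 and 10152 in disease, and 4329.5, 6327 and 9615 in RYGB. The groups lay on top of one another. The mean was 7440.0 ± 1577 (SD, n = 6) in healthy control, 6950.4 ± 2455 in disease and 6593 ± 1842 in RYGB. The log2 fold change was -0.15 ± 0.23 in disease against healthy control (-0.62 to 0.33, adjusted p = 0.862), -0.04 ± 0.23 in RYGB against disease (-0.52 to 0.43, adjusted p = 0.937) and -0.19 ± 0.23 in RYGB against the controls (-0.66 to 0.28, adjusted p = 0.605). As fold changes these intervals reach from 0.631 to 1.35 over the 3 comparisons. With scaling to proximal tubule markers, Slc22a5 was called lower in RYGB than in disease (-0.50, adjusted p = 0.032). The median of all genes was -0.46 under that scaling, and 2936 of 13988 genes were called lower. The value of Slc22a5 is thus close to the shift that the scaling gave all genes.

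**Figure D2:**
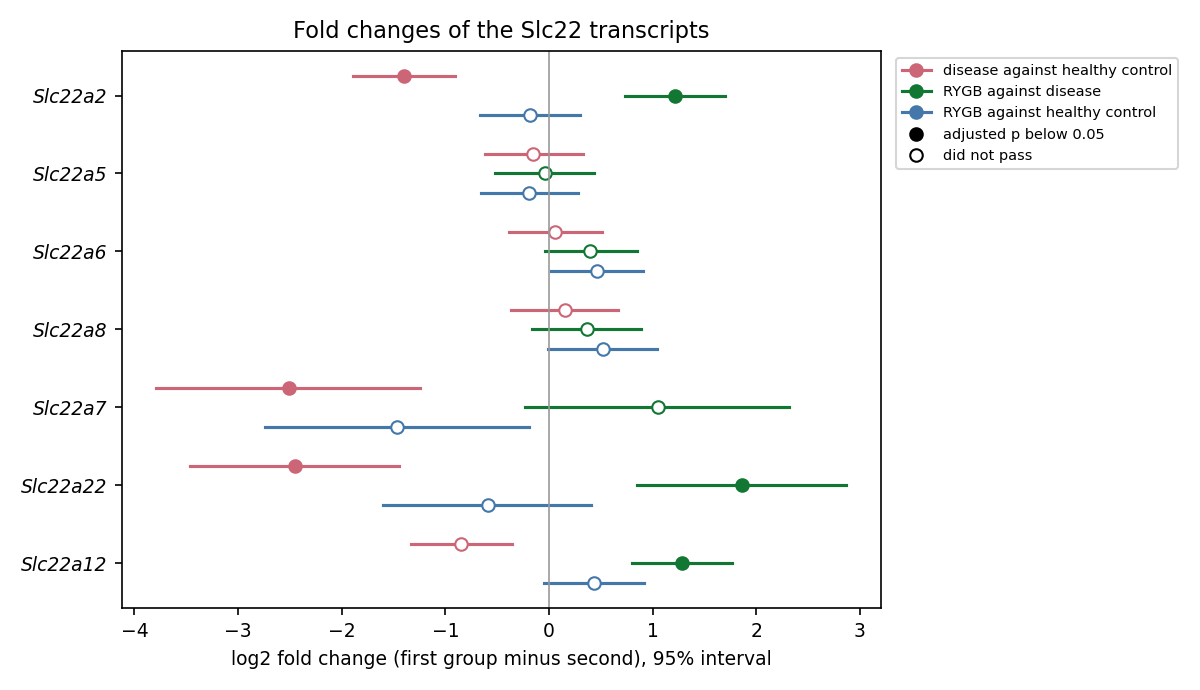
Log2 fold changes (horizontal axis, first group minus second) with 95% intervals for the 7 transcripts in the 3 comparisons; filled points passed an adjusted p below 0.05. Slc22a2, Slc22a7 and Slc22a22 have filled points left of 0 for disease, and Slc22a2, Slc22a22 and Slc22a12 filled points right of 0 for RYGB against disease.

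Within disease and RYGB, the libraries ranked the transcripts in 2 partly opposite orders. Of the disease libraries, replicate 5 held the top value in Slc22a2, Slc22a7, Slc22a12 and Slc22a22 and was the lowest disease library in Slc22a5, Slc22a6 and Slc22a8. Among the RYGB libraries, replicates 2 and 4 held the top places in Slc22a2, Slc22a7 and Slc22a22, and replicates 3 and 5 the bottom places in these genes and in Slc22a12. Replicates 2 and 4 stood low in the other order: replicate 4 was lowest in Slc22a5 and Slc22a6 and replicate 2 in Slc22a8. Over the 18 libraries, with group means taken off, Pearson's r of log2(value + 1) was 0.87 between Slc22a7 and Slc22a22, 0.70 between Slc22a2 and Slc22a22 and 0.61 between Slc22a12 and Slc22a22. It was 0.94 between Slc22a6 and Slc22a8, 0.81 between Slc22a5 and Slc22a6 and 0.80 between Slc22a5 and Slc22a8. Between the 2 sets it was -0.78 between Slc22a22 and Slc22a8 and -0.65 between Slc22a22 and Slc22a6. With Slc22a5, Slc22a6 and Slc22a8 it was weaker for Slc22a2 (-0.21, -0.13 and -0.33) and for Slc22a12 (-0.31, -0.13 and -0.37). These values describe the 18 libraries, whose genes share a library, a size factor and a piece of cortex.

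**Figure D3:**
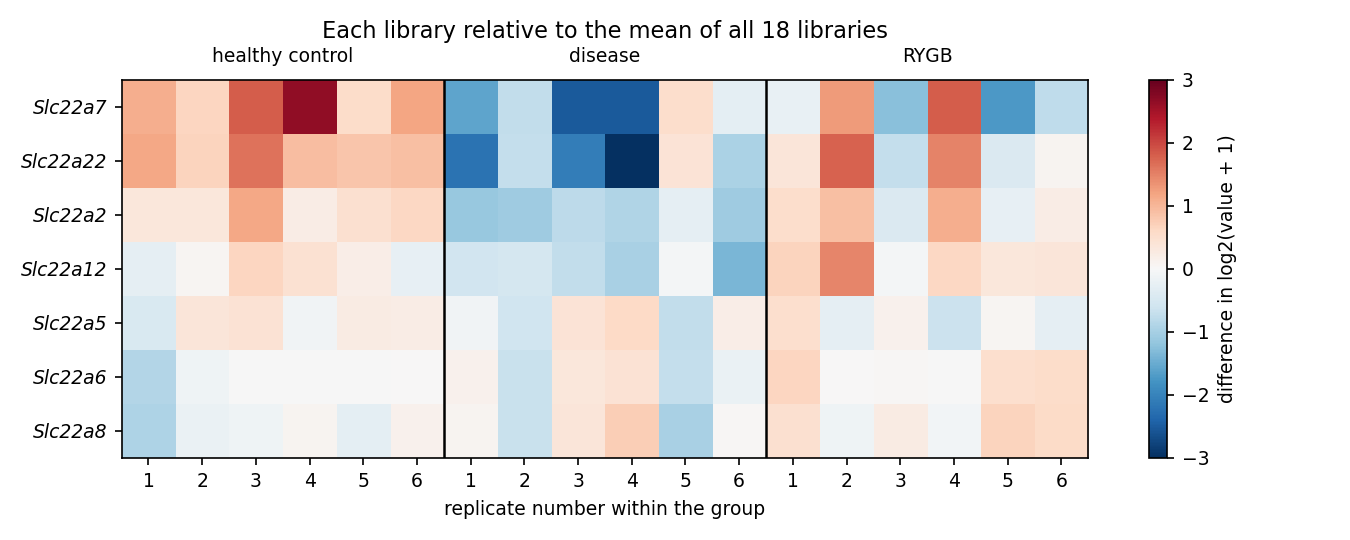
Difference of log2(value + 1) from the mean of all 18 libraries (colour, red above and blue below) for each transcript (rows) and library (columns, by group and replicate number). Slc22a7, Slc22a22, Slc22a2 and Slc22a12 share many of their red and blue columns, as do Slc22a5, Slc22a6 and Slc22a8 in a separate pattern. RYGB replicate 5 is above the mean in Slc22a12 and below it in Slc22a7, Slc22a22 and Slc22a2.

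Markers of several cell types moved with the groups, and those of the S3 segment and of the thick ascending limb also shared part of the library order of Slc22a2 and Slc22a22. Sums of markers of the first parts of the proximal tubule shared part of the order of Slc22a5, Slc22a6 and Slc22a8. Of 7 S3 markers, all tested, 3 fell in disease (Kap, Slc7a13 and Slc7a12), 2 rose in RYGB against disease (Slc6a18 and Acy3), and in RYGB against healthy control Acy3 was higher and Kap lower. The genes of these counts that the rule for named genes does not give (Slc6a18, Acy3 and below Krt8 and Gatm) are named after their values were seen. Without 1 library the calls of Slc6a18 and Acy3 against disease were lost in 12 and 13 of 18 fits, those of Acy3 and Kap against healthy control in 10 and 8, and that of Slc7a12 in 1. No S3 marker was at 0 in every library. The summed S3 markers were 54353 to 127124 normalised reads in healthy control, 15410 to 31912 in disease and 17816 to 83140 in RYGB. Kap weighs heavily in this sum: its mean was 58046 beside a mean sum of 87318 in healthy control. In disease these means were 5543 and 20496, and in RYGB 15676 and 49034. The S3 markers not called in disease had log2 fold changes of 0.04 (Acy3), -0.37 (Slc5a1), -0.78 (Slc6a18) and -0.80 (Slc5a10). The order of libraries was partly that of Slc22a2 and Slc22a22: disease replicate 5 was highest in its group (31912), RYGB replicates 4 (83140) and 2 (72655) were highest and RYGB replicate 3 lowest (17816), and healthy control replicate 3 was highest (127124). Kap, a kidney androgen-regulated protein of the S3 segment, fell from 58046 ± 23936 to 5543 ± 4263 (SD, n = 6 each) in disease (log2 fold change -3.52 ± 0.52, limma adjusted p = 0.000911). Slc7a13, an S3 amino acid transporter, fell from 12447 ± 5469 to 1286 ± 1247 (-3.76 ± 0.64, adjusted p = 0.00335). None of 6 markers of the first parts of the tubule (S1 and S2) was called in any comparison by limma, edgeR or DESeq2, or reached an unadjusted p below 0.05. Their sums were 25787 to 53331 in healthy control, 26720.0 to 66957 in disease and 21748 to 61976 in RYGB. Disease replicate 5 (26720.0) and RYGB replicates 2 (21748) and 4 (31420) had the lowest S1 and S2 sums of their groups. Among the controls the lowest sum was in replicate 4 (25787), while Slc22a5, Slc22a6 and Slc22a8 were lowest in replicate 1. The part of these markers in the Slc22 changes was not tested.

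The thick ascending limb is a later segment of the nephron. Of its 3 tested markers Umod, which encodes uromodulin, fell in disease (log2 fold change -1.36 ± 0.28, limma adjusted p = 0.0129) and rose in RYGB against disease (1.13 ± 0.28, adjusted p = 0.0294), and Cldn19, a tight junction protein, rose in RYGB against disease (1.10 ± 0.27, adjusted p = 0.0265). The rises of Umod and Cldn19 were lost in 6 and 5 of 18 fits without 1 library, and the fall of Umod was lost with quantile normalization (adjusted p = 0.161) and with scaling to proximal tubule markers (0.105). The summed markers were 73381 to 97892 normalised reads in healthy control, 22947 to 71886 in disease and 45048 to 118750.2 in RYGB. Disease replicate 5 (71886) and RYGB replicates 2 (118750.2) and 4 (92549.8) were again the highest of their groups, while RYGB replicate 5 was the lowest (45048) and healthy control replicate 5 the highest of its group (97892). The part of these markers in the Slc22 changes was not tested either.

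Of the other cell types, 1 of 6 markers of the distal convoluted tubule and collecting duct was called (Aqp3, lower in RYGB than in disease, -0.62 ± 0.17, adjusted p = 0.0444, lost in 14 of 18 fits without 1 library). Of 4 endothelial markers Vwf fell in disease (-1.16 ± 0.27, adjusted p = 0.0319, lost in 9 of 18 fits), and Vwf and Cdh5 were lower in RYGB than in healthy control (Cdh5 lost in 9 of 18 fits). Of 6 leukocyte markers Lyz2 rose in disease (0.60 ± 0.11, adjusted p = 0.0044) and was higher in RYGB than in healthy control, and Mrc1 fell in RYGB against disease (-1.75 ± 0.22, adjusted p = 0.000334) and was lower than in healthy control. Of 2 fat markers Adipoq was lower in RYGB than in disease (-0.82 ± 0.20, adjusted p = 0.0289, lost in 6 of 18 fits). None of 6 glomerular markers was called by limma in any comparison, and 0, 0 and 1 of them reached an unadjusted p below 0.05. The part of these markers in the Slc22 values was not tested.

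**Figure D4:**
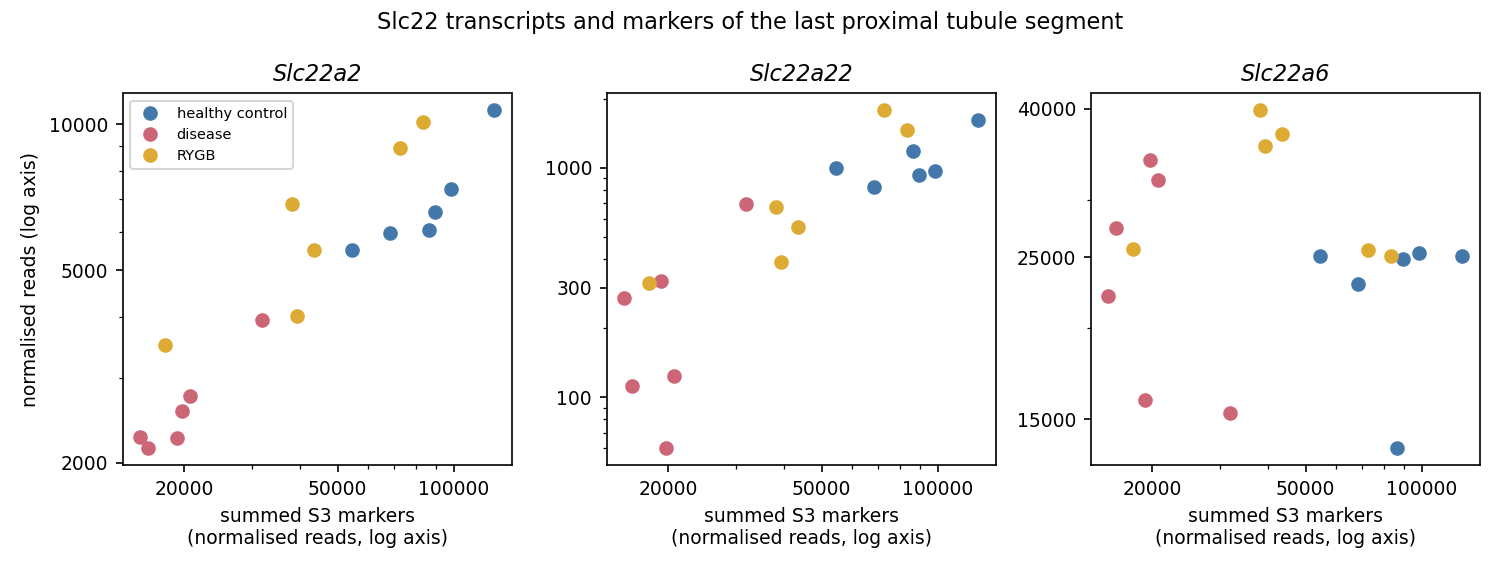
Normalised reads of Slc22a2, Slc22a22 and Slc22a6 (vertical, log axis) against the summed normalised reads of 7 S3 markers (horizontal, log axis), 1 point per library coloured by group. Slc22a2 and Slc22a22 are high where the S3 sum is high, in RYGB replicates 2 and 4 and the controls, while Slc22a6 shows no such order. Kap makes up most of the mean sum of the controls.

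Injury markers moved too. Of 6 tested tubular injury genes Havcr1, Spp1, Clu and Krt8 rose in disease, the first 3 of these fell in RYGB against disease, and Krt8 was higher in RYGB than in healthy control. The calls of Krt8 in disease and in RYGB against healthy control were lost in 15 and 8 of 18 fits without 1 library. The sums of the list were 10542 to 18153 in healthy control, 23148 to 48371 in disease and 14984 to 17047 in RYGB. Disease replicate 5, the disease library closest to the controls in Slc22a2, Slc22a7, Slc22a12 and Slc22a22, had one of the higher injury sums (45709). Spp1 weighs heavily in this sum: its disease mean was 22335 beside a mean sum of 38763, and it was highest in disease replicate 5 (30777). Havcr1 was highest in disease replicate 6 (3065). Of 11 proximal tubule markers, Ggt1 and Slc3a1 fell in disease, Ggt1 and Miox rose in RYGB against disease, and Gatm was lower in RYGB than in healthy control. The falls of Ggt1 and Slc3a1 were lost in 4 and 3 of 18 fits without 1 library (healthy control replicates 3 and 6 and disease replicate 2 for both, and disease replicate 1 for Ggt1; adjusted p up to 0.0753 and 0.0665), that of Gatm in 11 and the rise of Miox in 6 (up to 0.0729). Whether these shifts have a part in the Slc22 values was not tested.

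Genes around these carriers mostly did not pass. Among other Slc22 family genes, 7 of 13 listed were tested: none was called in disease, and Slc22a17, a receptor for the iron carrier lipocalin 2, rose in RYGB against disease from 476 ± 156 to 799 ± 183 (SD, n = 6 each; 0.78 ± 0.22, limma adjusted p = 0.0497). That call was lost in 13 of 18 fits without 1 library (adjusted p up to 0.108) and is borderline.

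Of 9 tested partners of organic ion secretion (the dicarboxylate carriers, efflux pumps and the sodium pump), 1 was called: Slc13a2, which takes citrate and other dicarboxylates up from the urine, was higher in RYGB than in healthy control (5981 ± 2213 against 2325 ± 1078, 1.40 ± 0.35, adjusted p = 0.0336). None of 9 tested urate-handling genes was called by limma; at an unadjusted p below 0.05 there were 1, 2 and 1 in the 3 comparisons (11.1, 20.7 and 26.2% of all genes), and DESeq2 called 1 in RYGB against disease and edgeR 0. The scaffold proteins that hold URAT1 in the brush border, Pdzk1 and Slc9a3r1, had fold changes of -0.11 ± 0.26 and 0.09 ± 0.17 for RYGB against disease (adjusted p = 0.847 and 0.808). Of 7 carnitine genes, Cpt2, a mitochondrial carnitine palmitoyltransferase, was higher in RYGB than in healthy control (1772 ± 185 against 1149.6 ± 269, 0.65 ± 0.17, adjusted p = 0.039). The calls of Slc13a2 and Cpt2 were lost in 8 and 10 of 18 fits without 1 library.

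None of 8 prostaglandin genes was called by limma or edgeR; DESeq2 called 1 in each comparison with RYGB, and at an unadjusted p below 0.05 there were 0, 3 (2 higher, 1 lower) and 4 (2 higher, 2 lower) in the 3 comparisons, beside 11.1, 20.7 and 26.2% of all genes. Hpgd, the enzyme that inactivates prostaglandins, and Slco2a1, a prostaglandin carrier, were chosen after their values were seen: in RYGB against disease they had 0.54 ± 0.16 (adjusted p = 0.0694) and 0.35 ± 0.15 (adjusted p = 0.193). The reductase Ptgr2 had -0.30 ± 0.12 for RYGB against disease (adjusted p = 0.167), and the exporter Abcc4 -0.11 ± 0.23 (adjusted p = 0.827). Of 11 tested nuclear factors known to act on renal Slc22 genes, limma called none in disease against healthy control or in RYGB against disease. At an unadjusted p below 0.05, 3 were lower in disease and 5 higher in RYGB than in disease, where 11.1 and 20.7% of all genes reached that threshold in either direction; edgeR called 1 in each of these comparisons and DESeq2 called 2 in each. Their median log2 fold change was -0.28 in disease and 0.50 in RYGB against disease.

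Likeness of pattern over the 18 libraries was ranked among tested genes with a symbol, with clone and locus names passed over. The nearest of these to Slc22a22 were Slco1a6 and Slc21a4 (Pearson's r 0.99 each) and Mep1b (0.98). Slc22a2 was closest to UST4r (0.97), Cndp1 (0.95) and Rarres1 (0.93), Slc22a7 to Dhrs7l1 (0.96), Cyp2j4 and Slco4c1 (0.95 each), and Slc22a12 to Ggt1 (0.93), Slc23a3 and Ppp1r1b (0.89 each). With group means taken off, the closest were Slc21a4 and Slco1a6 (0.98 each) for Slc22a22, Prob1 (0.93) for Slc22a2, Ppic (0.95) for Slc22a7 and Cblc (0.88) for Slc22a12. Ggt1, the brush border enzyme gamma-glutamyltransferase, fell in disease from 9178 ± 2605 to 4518 ± 1407 and rose to 12468 ± 4133 in RYGB (-1.03 ± 0.23 and 1.45 ± 0.23, limma adjusted p = 0.0236 and 0.00139). These r values describe 18 libraries in 3 groups and carry no test.

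RefSeq held a promoter window for 6 of the 7 genes. The windows of the genes that rose after bypass differed widely in GC content, at 52.7% for Slc22a2, 47.0% for Slc22a12 and 34.7% for Slc22a22, beside 58.0% for Slc22a8 and a median of 51.7% over all 33469 windows. A search of both strands is given for 5 motifs: the hepatocyte nuclear factor 4 site CAAAGTCCA (in 0.391% of all windows), AGAACA (the androgen and glucocorticoid receptor half-site, 20.7%), the E-box CACGTG (6.42%), the TATA box TATAAA (14.2%) and the nuclear receptor direct repeat with a spacer of 1 base (0.0538%). Of the 6 windows, that of Slc22a22 held AGAACA on the opposite strand, from position -236 to -231 from the start, where it reads TGTTCT. The windows of Slc22a2, Slc22a5, Slc22a7, Slc22a8 and Slc22a12 held none of these motifs, which says only that these letters are not in these windows. A match is a description of the reference sequence and not a measured site.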

How the data were processed

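RNA of 18 kidney cortex libraries (3 groups of 6) was sequenced after stranded poly(A) library preparation, per the labels' protocols. What the authors deposited is a signal per gene, read counts divided by 1 size factor per library. The submitters' processing notes name FastQC 0.11.2, MultiQC 0.9, HTSeq 0.6.1p1, DESeq2 and the build Rnor_5.0; the aligner and the strand setting of counting were not given in the sources used here. Of 18423 rows, 3 name no gene and were left out: reads outside genes (27.62 to 43.17% of counted reads), reads fitting several places (13.46 to 18.13%) and ambiguous reads (0.069 to 0.114%). At least 99.9946% of a library's values were whole reads within 0.01. All pairs of libraries within a group differed beyond sampling noise (chi-square over its degrees of freedom at least 22.53).

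Genes reaching 10 in 6 or more libraries (13988) were tested with limma 3.58.1 (R 4.3.3, mean-variance trend) on log2(value + 1), which understates changes of low genes, in 1 fit of 3 group means (15 residual degrees of freedom). P-values are two-sided and Benjamini-Hochberg adjusted within a comparison. Count models of the recovered whole reads (DESeq2 1.42.0, edgeR 4.0.16), other scalings, filters and pseudocounts, the replicate block and leaving out each library were alternatives. No transcript lengths were used, so levels were not compared between genes. The fit was tested on simulated data with known changes. It called 38.8, 38.8 and 28.4% of 1.5-fold changes in the 3 comparisons, and 77.6, 79.1 and 82.1% of 2-fold changes. Of its calls there, 6.6, 5.9 and 0.7% were false. A change of 1.5-fold or less can thus be missed.

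The members, lists and alternatives were chosen with earlier results of these data known. Named from each list were up to 3 called genes or, without a call, the 2 highest in level. For each called member, the 3 genes most alike in pattern were named too, with clone and locus names passed over. Libraries of the same number deviated together between disease and healthy control (r = 0.13 to 0.32, 6 of 6 pairs above 0.1). The control of the same number was the most alike for only 3 of 6 disease libraries. A pairing of those groups by number is thus possible but not established, and no label gives it. The main fit used no pairing, and the replicate block was an alternative. Libraries of the same number did not deviate together where RYGB was compared. Promoter windows are from RefSeq on GRCr8. Some genes and motifs of the lists are not reported here.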

Additional observations from a re-analysis of the deposited data

Results flagged for a closer look

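Of 21 groups of 6 libraries (7 transcripts in 3 groups), 4 held 1 library far from the others, with a gap above Dixon's 95% critical value. Chance gives this in about 1 group in 20. In Slc22a2, healthy control replicate 3 had 10672 normalised reads (the other controls 5497 to 7349) and disease replicate 5 had 3940.2 (the others 2143 to 2745). In Slc22a6, healthy control replicate 1 had 13686 (the others 22965 to 25342). In Slc22a12, RYGB replicate 2 had 8063 (the others 2776 to 4625). Without RYGB replicate 2 the fold change of Slc22a12 against disease was 1.10 (limma adjusted p = 0.00753), and without disease replicate 5 that of Slc22a2 against healthy control was -1.52 (adjusted p = 0.00138).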

How the results depend on the processing

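Without 1 library at a time, limma called 2 to 4 of the 7 transcripts in disease against healthy control, 2 to 3 in RYGB against disease and 0 to 0 in RYGB against healthy control, and over all genes 126 to 312, 261 to 819 and 209 to 1506. Directions turned in fits without 1 library for uncalled changes only: Slc22a6 (-0.082 to 0.18) and Slc22a8 (-0.0093 to 0.33) in disease and Slc22a5 (-0.18 to 0.084) in RYGB against disease. Without healthy control replicate 4 and disease replicate 5 together, an alternative chosen after seeing the data, 3, 3 and 0 transcripts and 348, 1051 and 1585 genes were called.

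The 11 proximal tubule markers had median log2 fold changes of -0.26, 0.70 and 0.27 in the 3 comparisons, and include Ggt1, Slc3a1 and Miox. Scaling to them thus by itself shrinks a fall in disease and a rise in RYGB against disease. It moved the median of all genes by 0.37, -0.46 and -0.10 in the 3 comparisons. It gave 189 higher and 43 lower genes in disease (81 and 144 otherwise), 59 and 2936 of 2995 in RYGB against disease (258 and 294 of 552), and 59 and 114 of 173 in RYGB against healthy control (344 and 277 of 621). Under it 1 transcript, Slc22a22, was called in disease (-2.08, adjusted p = 0.0448). Slc22a2 kept its rise after bypass (0.76, 0.05), that of Slc22a12 (0.82, 0.0531) and Slc22a22 (1.40, 0.0585) missed, Slc22a5 was called lower in RYGB than in disease (-0.50, 0.032), and the signs of Slc22a5 in disease (0.22) and of Slc22a6 (-0.053) and Slc22a8 (-0.091) in RYGB against disease turned.

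DESeq2 called 410, 1098 and 1602 genes against 225, 552 and 621. A minimum of 50 gave 143 in disease and could not test Slc22a7, and the compared groups alone gave 1442 in RYGB against healthy control. A replicate block gave 158, 408 and 496 genes, and within the compared groups 252, 136 and 491, with 1 transcript (Slc22a12) called in RYGB against disease, where Slc22a2 (0.0638) and Slc22a22 (0.152) missed. Over all libraries the block lost Slc22a22 in that comparison too (0.066). The block changed no other call of the 7 than these and those given for Slc22a7 and Slc22a12. The cause of these differences was not tested. Depth limits Slc22a7, with 2 to 16 reads per disease library.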
